A study of Mus musculus with 8 samples.

Results

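Endothelial genes were described in RNA-seq data of mammary epithelium from pregnant mice. The 36 genes were taken by name from a list of markers of blood and lymphatic endothelium, their receptors and their ligands, and all 36 were found among the 55933 genes of the deposited table. Of these, Lyve1, Prox1 and Flt4 stand for lymphatic endothelium, Vegfa, Vegfc and Apln encode ligands, and the other 30 are treated as blood endothelial members. The study asked what the BMP receptor BMPR1a does in the myoepithelial layer of the gland. A library was made from each of 4 control and 4 cKO female mice on a C57BL/6 background at pregnancy day 14.5. The cKO mice carried K14-rtTA and teto-Cre over Bmpr1a fl/fl, and doxycycline in their drinking water switched on Cre through the K14 promoter, which is active in myoepithelial cells and not in endothelium. Controls were littermates, which the sample labels call WT, and neither labels nor methods give the alleles or the doxycycline treatment of the controls sequenced. Glands were digested with collagenase and hyaluronidase, a step meant to take away fat, and red cells were lysed with ammonium chloride. RNA came from the whole epithelial preparation, for which no sort against CD31, the product of Pecam1, is described.

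Blood vessels are lined by endothelial cells, which are held together by VE-cadherin and PECAM1 and are kept alive and guided by VEGF and angiopoietin signals through VEGF and Tie receptors. In the mammary gland the capillary bed around the alveoli expands during pregnancy and supplies the substrates of milk. Lymphatic endothelium is set apart by the transcription factor PROX1, the hyaluronan receptor LYVE1 and the VEGF-C receptor encoded by Flt4.

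The targeted gene, Bmpr1a, lies on chromosome 14 from 34410734 to 34503341 of GRCm38. Its FPKM (depth-scaled fragments for each kilobase of a gene) was 10.6, 11.7, 8.74 and 9.52 in controls 1 to 4 against 12.0, 12.0, 10.2 and 10.4 in cKO replicates 1 to 4. The groups overlapped, with means of 10.1 ± 1.28 and 11.2 ± 1.01 FPKM (± SD, n = 4 a group). A two-sided exact permutation test gave p = 0.257. Bmpr1a RNA was not lower in the libraries labelled cKO. The values cover the whole gene in a mixture of cells and do not separate the floxed part, so cKO below names libraries by their label and each direction depends on it. Between 16456480 and 18778823 reads lay on genes in control libraries and between 16123108 and 19896988 in cKO libraries.

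RNA of endothelial genes was present in all 8 libraries. The members that define blood endothelium here are Pecam1, Cdh5, Kdr, Tek and Tie1, and none of them was at 0 in any library. The summed FPKM of these 5 genes was 82.0, 78.3, 78.0 and 73.3 in controls 1 to 4 against 80.5, 65.5, 53.3 and 66.4 in cKO replicates 1 to 4. Replicate 1 of cKO lay among the controls, replicates 2, 3 and 4 lay below every control library, and replicate 3 was the lowest of all. The groups thus overlapped. Lymphatic RNA was scarce beside it. The 3 lymphatic genes summed to 3.77, 2.34, 2.63 and 3.50 FPKM in control and 3.17, 2.89, 1.65 and 2.96 in cKO replicates 1 to 4, which overlapped as well. Lyve1 was the most abundant of the 3. For comparison, the 8 luminal markers summed to 5993 ± 702 for control and 5868 ± 914 for cKO (± SD, n = 4 a group). In bulk RNA, fewer endothelial cells and less RNA per endothelial cell cannot be told apart.

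The fit used limma on log2(FPKM + 1) for 15143 genes that had a mean of at least 0.5 FPKM, so log2 fold changes understate the change of low genes. Of the 36 members, 33 passed this filter, and Clec14a, Prox1 and Mmrn1 did not. After Benjamini-Hochberg adjustment over all genes tested, 2 of the 33 members had a p under 0.05, which were Vwf, lower in cKO, and Apln, higher in cKO. This is 6.06% of the members tested, against 0.892% of all genes tested. At an unadjusted p under 0.05, 8 members were lower in cKO (24.2%, against 7.53% of all genes) and 1 was higher (3.03%, against 8.85%). The 8 were Vwf, Plvap, Esm1, Nos3, Eng, Mmrn2, Pecam1 and Emcn. For 4 members all cKO values were under the lowest control (12.1%, against 4.6% of all genes), and for Apln every cKO library was above (3.03%, against 6.1%). Without cKO replicate 1, 14 members and 1099 of all genes tested had all cKO values under the lowest control. The mean of log2(FPKM + 1) was the lower in cKO for 27 of the 33 (81.8%, against 49.8% of all genes tested). The median log2 fold change of the 33 was -0.19, against 0.0007 over all genes tested, and it was -0.11 without cKO replicate 3 and -0.27 without cKO replicate 1. Over all genes, 1340 were higher and 1140 lower at an unadjusted p under 0.05. That split depends on the scaling of libraries, being 789 and 1657 with every library set to the same sum of FPKM (TPM), 1040 and 1311 with that sum taken without milk genes, and 864 and 1792 with library totals.

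The adjusted calls did not hold without most of the single libraries. With any of control replicates 1 to 4 or cKO replicates 2, 3 or 4 left out, and with no filter on low values, 0 members had an adjusted p under 0.05 from limma, while 4 to 9 members were still lower and 1 higher at an unadjusted p under 0.05. Without cKO replicate 1, 2 members passed after adjustment, namely Vwf and Mmrn2, and 15 were lower at an unadjusted p under 0.05. Of all 15143 genes, 78 passed after adjustment in that fit and 1137 were lower at an unadjusted p. The count of lower members was 4 without control replicate 1 or 3, and 5 without cKO replicate 3 or 4. With each library left out in turn, 916 to 1194 of all genes were lower at an unadjusted p under 0.05. Log2 fold changes kept their size, from -0.49 to -0.42 for Vwf and from 0.82 to 1.10 for Apln with single libraries left out. Over all 19 alternative fits, the adjusted p from limma was under 0.05 in 10 for Vwf and in 9 for Apln. Vwf, Plvap, Esm1, Nos3 and Apln had an unadjusted p under 0.05 in all 19, Eng in 17, Mmrn2 in 14, Pecam1 in 13 and Emcn in 12.

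**Figure D1:**
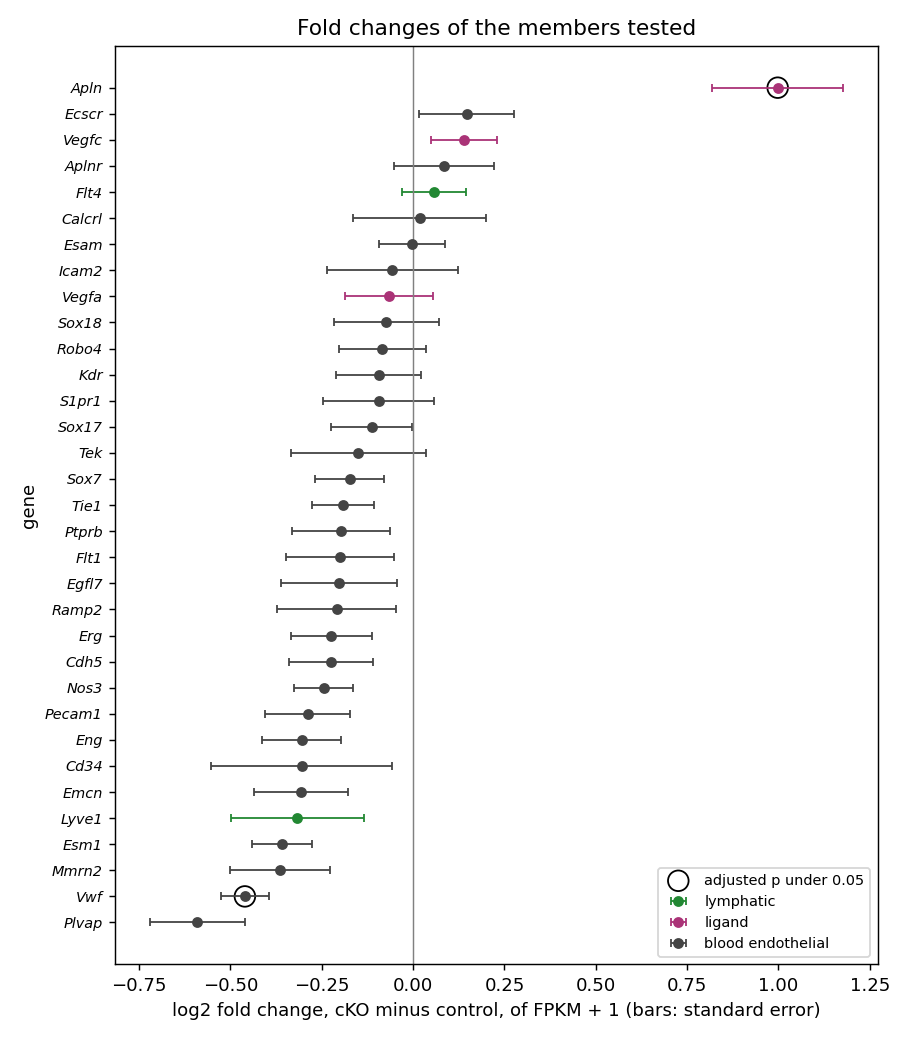
Log2 fold changes (cKO minus control, of FPKM + 1) of the 33 members that passed the filter, with their standard errors from limma. Vwf (-0.46) and Apln (1.00) are ringed for an adjusted p under 0.05, and most points lie left of 0.

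Among secreted and matrix proteins, Vwf encodes von Willebrand factor, the clotting protein that endothelium stores in granules and that megakaryocytes also make. It lies on chromosome 6 from 125546774 to 125686679. Vwf was 5.32, 5.14, 5.46 and 5.38 FPKM in controls 1 to 4 against 3.92, 3.70, 3.54 and 3.25 FPKM in cKO replicates 1 to 4. The control libraries lay close together and all cKO libraries lay below them, with means of 5.33 ± 0.134 and 3.60 ± 0.283 FPKM (± SD, n = 4 a group). This gave a log2 fold change of -0.46 (limma: standard error 0.066, Benjamini-Hochberg adjusted p = 0.0268), from 903 to 1622 reads per library. Leaving out single libraries gave adjusted p values of Vwf from 0.0367 to 0.0885 (limma), under 0.05 only without cKO replicate 1. On the log2 scale replicates 1 and 2 differed by -0.37, and replicates 3 and 4 by -0.55. The 6 platelet and megakaryocyte markers summed to 13.7, 10.8, 13.9 and 15.9 FPKM in control and 11.4, 12.8, 9.40 and 13.5 in cKO replicates 1 to 4, which overlapped. Of these 6 markers 3 passed the filter, 0 had an unadjusted or adjusted p under 0.05 from limma, Pf4 was the most abundant and Gp1bb was listed at 0 in all 8 libraries.

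Esm1 encodes endocan, a proteoglycan known as a marker of sprouting tip cells, and lies on chromosome 13 from 113209659 to 113218098. Esm1 stood at 2.20, 1.95, 2.50 and 2.01 FPKM in controls 1 to 4 against 1.51, 1.36, 1.38 and 1.62 FPKM in cKO replicates 1 to 4. No cKO library reached the lowest control, although only 46 to 88 reads per library stand behind these values. The log2 fold change of -0.36 (limma: standard error 0.082, Benjamini-Hochberg adjusted p = 0.0810) missed the threshold after adjustment. Mmrn2, a matrix glycoprotein of the endothelial surface, was 8.74, 7.64, 8.37 and 7.84 FPKM in control and 8.56, 5.22, 5.12 and 5.98 in cKO replicates 1 to 4. Replicate 1 of cKO lay within the control range and the other cKO libraries lay below it, with a log2 fold change of -0.36 (limma: standard error 0.14, Benjamini-Hochberg adjusted p = 0.231). Without cKO replicate 1, the adjusted p of Mmrn2 from limma was 0.0454, the lowest of its alternatives, which reached 0.41. Nos3, the nitric oxide synthase of endothelium, was 4.18, 3.87, 4.59 and 4.72 FPKM in control and 3.95, 3.52, 3.22 and 3.34 in cKO replicates 1 to 4. Here too replicate 1 of cKO alone overlapped with the controls, and the log2 fold change of -0.24 (limma: standard error 0.081, Benjamini-Hochberg adjusted p = 0.183) did not pass. Egfl7, a secreted protein of vessel walls, had a log2 fold change of -0.20 and did not pass, and the value was -0.07 without control replicate 3 and -0.11 without cKO replicate 3. An exon of Egfl7 overlaps Agpat2 on the other strand, which had up to 374 reads in a library where Egfl7 had at least 131. Mmrn1, a multimerin found in platelets and in lymphatic endothelium, was under the filter at 0.299 ± 0.0590 and 0.306 ± 0.0566 FPKM (± SD, n = 4 a group).

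Among junction and surface proteins, Plvap builds the diaphragms of fenestrae and caveolae and was the most abundant of the blood endothelial members. It lies on chromosome 8 from 71497765 to 71511752. Plvap was 57.4, 49.5, 70.6 and 64.5 FPKM in controls 1 to 4 against 47.8, 34.1, 38.8 and 38.5 in cKO replicates 1 to 4. All cKO libraries were below all controls, with replicate 1 of cKO just under the lowest control. The means were 60.5 ± 9.12 and 39.8 ± 5.73 FPKM (± SD, n = 4 a group), with a log2 fold change of -0.59 (limma: standard error 0.13, Benjamini-Hochberg adjusted p = 0.0775). In 5 of the 19 alternative fits its adjusted p was under 0.05. Eng encodes endoglin, a co-receptor for BMP9 and TGF-beta, and lies on chromosome 2 from 32646595 to 32682669. Eng was 21.2, 17.4, 21.9 and 19.0 FPKM in control and 17.2, 17.2, 12.9 and 16.3 in cKO replicates 1 to 4. The groups were apart by a narrow margin, between control replicate 2 and cKO replicates 1 and 2, and the log2 fold change of -0.31 (limma: standard error 0.11, Benjamini-Hochberg adjusted p = 0.207) did not pass. An exon of Eng overlaps Fpgs on the other strand, which had up to 587 reads in a library where Eng had at least 830, and reads of the pair may not be separated since strand-specific counting is not stated.

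Pecam1 is an adhesion molecule of endothelial junctions that platelets and leukocytes also carry. Pecam1 was 26.2, 24.0, 24.9 and 21.8 FPKM in control and 24.1, 20.6, 16.0 and 18.6 FPKM in cKO replicates 1 to 4. Replicate 1 of cKO lay inside the control range and the others below it, with a log2 fold change of -0.29 (limma: standard error 0.12, Benjamini-Hochberg adjusted p = 0.262). Cdh5, the gene of VE-cadherin, was 38.6, 36.7, 35.6 and 33.4 FPKM in control and 37.2, 30.4, 24.4 and 32.1 FPKM in cKO replicates 1 to 4, with the same overlap by cKO replicate 1. Its log2 fold change of -0.22 (limma: standard error 0.12, Benjamini-Hochberg adjusted p = 0.378) did not pass. Emcn, a sialomucin of veins and capillaries, was 6.16, 5.50, 5.91 and 4.94 FPKM in control and 5.57, 4.55, 3.26 and 4.24 in cKO replicates 1 to 4. Again cKO replicate 1 overlapped with the controls and cKO replicate 3 was the lowest, with a log2 fold change of -0.31 (limma: standard error 0.13, Benjamini-Hochberg adjusted p = 0.277), which was -0.20 without cKO replicate 3. The remaining surface genes did not pass at an unadjusted p. Their log2 fold changes were -0.31 for Cd34, which marks fibroblasts and progenitors as well, -0.20 for Ptprb, the phosphatase VE-PTP, -0.08 for the guidance receptor Robo4, -0.06 for the integrin ligand Icam2, -0.003 for the junction protein Esam and 0.15 for the surface protein Ecscr. That of Cd34 was -0.10 without cKO replicate 3, -0.20 without control replicate 4 and -0.51 without cKO replicate 1. The direction of Esam is not fixed, since it was 0.0012 in 1 count-based fit and changed sign with single libraries left out, as that of Icam2 also did. Clec14a, a lectin of endothelium that binds MMRN2, was under the filter at 0.275 ± 0.0909 and 0.274 ± 0.206 FPKM (± SD, n = 4 a group), from 8 to 50 reads per library.

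**Figure D2:**
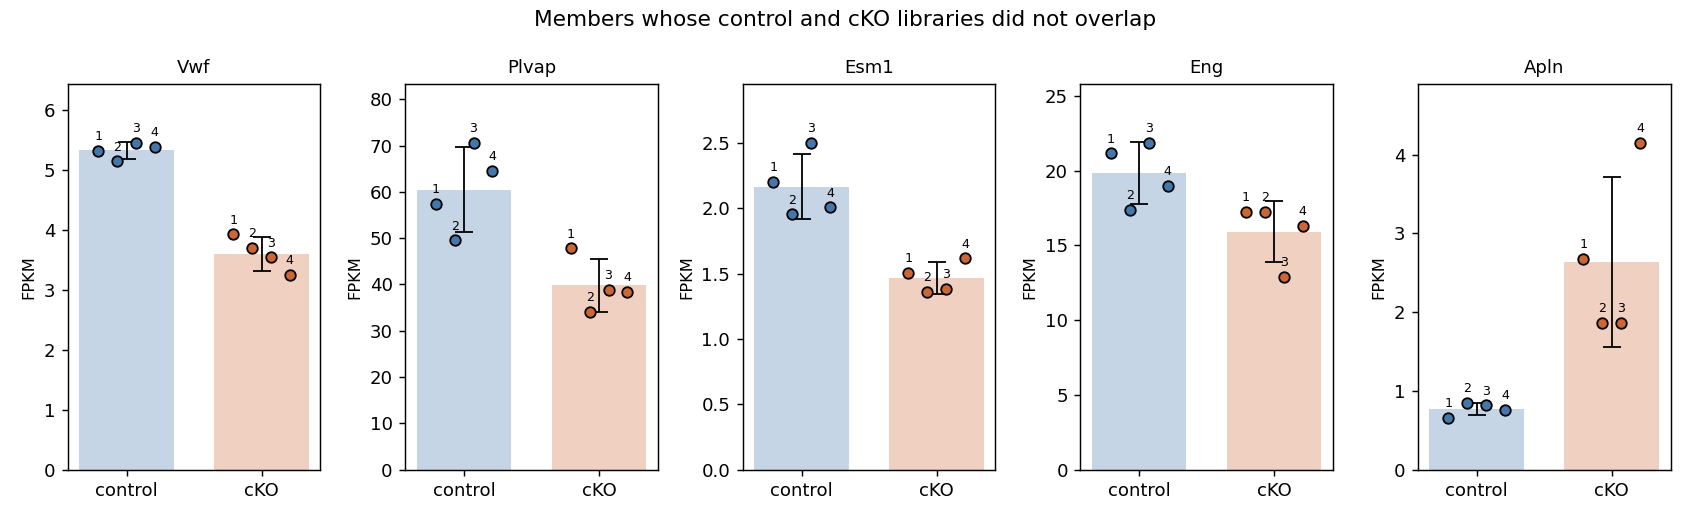
FPKM of the 5 members whose groups did not overlap, with 1 point per library numbered by replicate, bars for group means and error bars for the SD (n = 4 each). Vwf, Plvap, Esm1 and Eng are lower in all cKO libraries, and Apln is higher, from 0.660 to 0.843 FPKM in control against 1.86 to 4.16 FPKM in cKO.

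None of the VEGF receptors passed at an unadjusted p under 0.05. Kdr, the main signalling receptor for VEGF-A, was 3.61, 3.40, 3.54 and 3.17 FPKM in controls 1 to 4 against 3.79, 3.47, 2.27 and 3.24 in cKO replicates 1 to 4. The cKO libraries spanned the whole control range, and only replicate 3 was well below it. Its log2 fold change of -0.09 (limma: standard error 0.12, Benjamini-Hochberg adjusted p = 0.742) did not pass, and the direction changed to 0.02 when cKO replicate 3 was left out. Flt1, which binds VEGF-A tightly and limits its signal, had a log2 fold change of -0.20 and did not pass. The Tie receptors gave log2 fold changes of -0.15 for Tek, the angiopoietin receptor, and -0.19 for Tie1, and neither passed at an unadjusted p. Tek was 4.03 FPKM in cKO replicate 1 against 1.95 to 2.11 in the other cKO libraries.

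Vegfa was the most abundant of the ligands, a growth factor that epithelium and other cells make for endothelium. Vegfa was 53.1, 54.7, 66.9 and 52.0 FPKM in control and 64.7, 45.3, 56.2 and 50.9 FPKM in cKO replicates 1 to 4. The groups overlapped widely, with a log2 fold change of -0.07 (limma: standard error 0.12, Benjamini-Hochberg adjusted p = 0.830), and the sign changed in 2 of its alternatives. Vegfc, the lymphatic growth factor, was 2.99, 3.63, 2.61 and 3.37 FPKM in control and 3.41, 3.91, 3.39 and 3.52 in cKO replicates 1 to 4. These overlapped too, with a log2 fold change of 0.14 (limma: standard error 0.090, Benjamini-Hochberg adjusted p = 0.490).

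Apln encodes apelin, a peptide known from tip cells and also from adipocytes, and lies on chromosome X from 48025146 to 48034853. Apln was 0.660, 0.843, 0.815 and 0.761 FPKM in controls 1 to 4 against 2.68, 1.87, 1.86 and 4.16 FPKM in cKO replicates 1 to 4. All cKO libraries were above all controls, with replicate 4 of cKO the highest, and the means were 0.770 ± 0.0809 and 2.64 ± 1.08 FPKM (± SD, n = 4 a group). The mean of cKO was 3.43 times that of control, from 36 to 243 reads per library. The log2 fold change of 1.00 (limma: standard error 0.18, Benjamini-Hochberg adjusted p = 0.0461) is compressed by the pseudocount, and with a pseudocount of 0.1 it was 1.58. The adjusted p of Apln from limma ranged from 0.0505 to 0.123 with each library left out in turn, so leaving out any of the 8 ended the call. Replicates 1 and 2 gave a difference of 0.89, and replicates 3 and 4 of 1.10. Aplnr, the apelin receptor, had a log2 fold change of 0.08 and did not pass. The part of adipocytes in the rise of Apln was not tested. Of 8 adipocyte markers 5 passed the filter, and 3 were higher at an unadjusted p under 0.05 (8.85% of all genes were), of which Cidec also passed after adjustment (log2 fold change 0.86, adjusted p = 0.0377, limma). The other 2 were Cfd (1.90) and Adipoq (0.71), and 0 of the 8 were at 0 in all libraries. Their summed FPKM was 100.1, 86.2, 134 and 115 in control and 110.3, 145, 147 and 148 in cKO replicates 1 to 4. These overlapped. Most of the sum came from Fabp4, at 96.7 ± 17.8 and 111 ± 13.2 FPKM, where Adipoq was 0.303 ± 0.201 and 1.25 ± 0.871 FPKM (± SD, n = 4 a group). Which cells made Fabp4 was not tested. Within cKO the sum was lowest in replicate 1, which had the second highest Apln, while Cidec, Cfd and Adipoq were highest in replicate 4, as Apln was.

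The adrenomedullin receptor is made of Calcrl and Ramp2. Their log2 fold changes were -0.21 for Ramp2 and 0.02 for Calcrl, and the latter turned to -0.03 in TPM or with library totals and was also negative without control replicate 3, cKO replicate 1 or cKO replicate 2. The value of Ramp2 was -0.09 without control replicate 4 and -0.12 without cKO replicate 2. S1pr1, the receptor for sphingosine 1-phosphate that stabilises vessels, had a log2 fold change of -0.09, which changed sign without cKO replicate 3. None of these 3 genes passed at an unadjusted p. Of the transcription factors, the ETS factor Erg (-0.22) and the SOX factors Sox7 (-0.17), Sox17 (-0.11) and Sox18 (-0.07) had lower means in cKO and none passed at an unadjusted p under 0.05, with Sox18 changing sign in 1 alternative.

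Lyve1, Prox1 and Flt4 did not follow a common direction. Lyve1 was 2.51, 1.27, 1.57 and 2.39 FPKM in controls 1 to 4 against 1.61, 1.52, 0.733 and 1.53 in cKO replicates 1 to 4. The groups overlapped, and cKO replicate 3 was the lowest library, with a log2 fold change of -0.32 (limma: standard error 0.18, Benjamini-Hochberg adjusted p = 0.434). Lyve1 was highest in control replicate 1. The summed macrophage markers given further on were likewise highest in control replicate 1 (201 FPKM) and lowest in cKO replicate 3 (98.8 FPKM). The part of macrophages in Lyve1 was not tested. Flt4 was 0.820, 0.645, 0.696 and 0.641 FPKM in control and 0.799, 0.906, 0.589 and 0.791 in cKO replicates 1 to 4, without separation of the groups and with a log2 fold change of 0.06 (limma: standard error 0.088, Benjamini-Hochberg adjusted p = 0.797). Prox1, under the filter, was 0.440, 0.433, 0.363 and 0.470 FPKM in control and 0.753, 0.470, 0.330 and 0.642 in cKO replicates 1 to 4, and the groups overlapped (p = 0.314, two-sided exact permutation). Only 44 to 122 reads lay on Prox1 in a library, so small differences could be missed at this depth. Of 9 other lymphatic genes 5 passed the filter, and 2 were lower at an unadjusted p under 0.05 (7.53% of all genes were), namely the matrix protein Reln (-0.47) and the chemokine gene Ccl21a (-1.15). Ccl21a was 3.16, 2.15, 10.7 and 1.33 FPKM in control and 2.06, 1.21, 0.313 and 0.670 in cKO replicates 1 to 4, and its log2 fold change was -0.67 without control replicate 3. Its reads may be shared with near-identical copies. In control its order over libraries was that of the lymphocyte markers given further on, whose part in it was not tested. All 5 tested had a lower mean in cKO, with a median log2 fold change of -0.26, as did 8 of the 9 listed. Their sum was 20.1, 17.7, 24.7 and 16.2 FPKM in control and 15.0, 14.6, 11.3 and 11.6 in cKO replicates 1 to 4, where all cKO libraries were below all controls. Nrp2 was the most abundant of the 9, at 6.05 ± 0.896 and 5.51 ± 0.841 FPKM (± SD, n = 4 a group).

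The blood endothelial members together, without ligands and lymphatic genes, summed to 300.1, 282, 326 and 299 FPKM in controls 1 to 4 against 301, 242, 212 and 256 FPKM in cKO replicates 1 to 4. The means were 302 ± 18.1 for control and 253 ± 37.2 for cKO (± SD, n = 4 a group), a ratio of 0.838, and the groups overlapped through cKO replicate 1. Most members shared the cKO library in which they were lowest or highest. Of the 36 members, 29 had their lowest cKO value in cKO replicate 3 (24 had their lowest value of all 8 libraries there), and 28 had their highest cKO value in cKO replicate 1. The ratio of summed levels was 0.884 without cKO replicate 3 and 0.785 without cKO replicate 1. Over the 36 members the median log2 difference was -0.03 in replicates 1 and 2 alone and -0.28 in replicates 3 and 4 alone, where the medians of all genes tested were -0.0007 and 0.003. The mean log2 value of cKO was lower for 20 of the 36 in the former set and for 32 in the latter, and the difference between the sets was not tested.

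**Figure D3:**
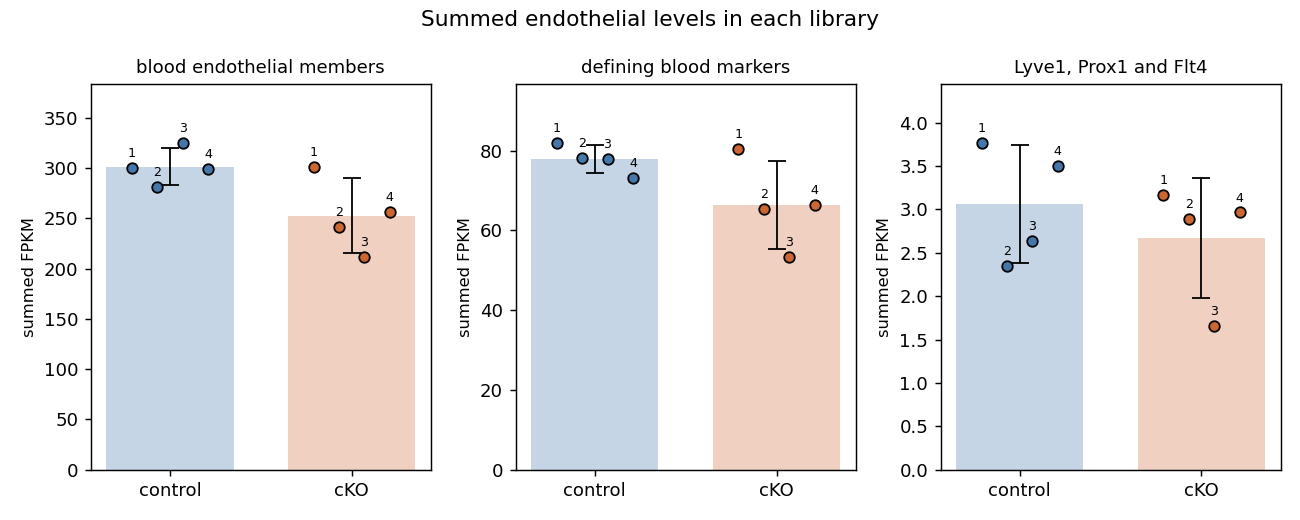
Summed FPKM in each library, numbered by replicate, of the 30 blood endothelial members, of Pecam1, Cdh5, Kdr, Tek and Tie1, and of Lyve1, Prox1 and Flt4, with group means as bars and the SD as error bars (n = 4 each). In cKO, replicate 1 is the highest and replicate 3 the lowest in each panel.

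Each gene that separated the groups was also set against the geometric mean of Pecam1, Cdh5, Kdr, Tek and Tie1 in the same library. These ratios were chosen after the values had been seen, and they were not tested. For Apln the ratio ran from 0.0659 to 0.0846 in control and from 0.225 to 0.494 in cKO libraries, without overlap. Vwf ran from 0.509 to 0.567 in control and from 0.359 to 0.518 in cKO libraries, and the overlap came from cKO replicate 3. Plvap, from 4.90 to 7.33 and from 4.11 to 5.68, and Esm1, from 0.193 to 0.260 and from 0.138 to 0.202, overlapped too, as did Eng, from 1.72 to 2.27 and from 1.58 to 2.07. Mean log2 ratios differed by 1.92 for Apln, -0.35 for Vwf, -0.38 for Plvap, -0.34 for Esm1 and -0.10 for Eng, cKO minus control.

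Other genes of the same cells and pathways were counted in the same fit. Of 20 other blood endothelial genes, all tested, 4 were lower and 1 higher at an unadjusted p under 0.05 (7.53% and 8.85% of all genes were), and 0 passed after adjustment by limma. The lower ones were Tm4sf1 (-0.30), a surface protein that epithelium shares and the most abundant of the 20, Myct1 (-0.28), the water channel gene Aqp1 (-0.28) and Rasip1 (-0.20), and Podxl (0.19) was the higher one. Without control replicate 3 Rasip1 was -0.13, and without cKO replicate 2 Podxl was 0.13. Their median log2 fold change was -0.09. Of 19 tested genes of the VEGF, angiopoietin and adrenomedullin pathway (20 listed), 2 were lower at an unadjusted p (7.53% of all genes were) and 0 passed after adjustment by limma, with a median of -0.10. These were Ramp3 (-0.57), a partner of Calcrl, and Sema3g (-0.29), while Angptl4 was the most abundant at 140.4 ± 30.7 and 159 ± 33.1 FPKM (± SD, n = 4 a group). Of 12 tested genes of BMP9 and ALK1 signalling (14 listed), the pathway that Eng serves, 0 passed at an unadjusted or adjusted p from limma. Their median was -0.15 and the BMP target Id3 was the most abundant, at 18.6 ± 1.56 and 17.3 ± 2.47 FPKM (± SD, n = 4 a group).

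Markers of vessel types were counted apart, and differences between these lists were not tested. Of 8 tested artery genes (10 listed), 3 were lower at an unadjusted p under 0.05 (7.53% of all genes were), namely Efnb2 (-0.56), the gene of ephrin-B2, Sema3g (-0.29) and the Notch ligand Dll4 (-0.29), and 0 passed after adjustment by limma. Jag1 was the most abundant artery gene, at 30.5 ± 3.06 and 25.3 ± 4.15 FPKM (± SD, n = 4 a group). The RNA came from a mixture of cells, and the part of epithelium in the artery genes was not tested. Of 6 vein genes 0 passed at an unadjusted or adjusted p from limma, with a median of -0.18, and Selp was the most abundant at 123 ± 14.3 and 106 ± 20.2 FPKM (± SD, n = 4 a group). All 5 capillary genes had a higher mean in cKO, and 3 were higher at an unadjusted p under 0.05 (8.85% of all genes were) with no overlap between the groups. Cd36, a fatty acid transporter that adipocytes and milk-secreting epithelium also make, was 72.2, 72.6, 81.0 and 76.9 FPKM in control and 127, 140.0, 144 and 174 in cKO replicates 1 to 4. Every cKO library was above every control, with a log2 fold change of 0.93 (limma: standard error 0.10, Benjamini-Hochberg adjusted p = 0.0204). The other 2 were Car4 (0.62), a carbonic anhydrase, and Cd300lg (0.43). Summed capillary levels were 123, 137, 164 and 162 FPKM in control and 200.3, 215, 220.3 and 263 in cKO replicates 1 to 4. Cd36 was the most abundant of the 5 capillary genes, with means of 75.7 and 146 FPKM in summed means of 147 and 224. The groups overlapped for Rgcc, at 54.6 ± 14.6 and 56.3 ± 5.99 FPKM, and for Gpihbp1, at 9.06 ± 1.40 and 10.8 ± 1.22 FPKM (± SD, n = 4 a group). The sum thus follows Cd36 in large part.

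Markers of neighbouring cells were summed over the same libraries, and their part in the endothelial values was not tested. Mural cell markers, of which 7 of 8 were tested and 0 passed at an unadjusted or adjusted p from limma, summed to 64.5, 79.9, 63.4 and 70.7 FPKM in control and 74.7, 57.5, 47.5 and 62.1 in cKO replicates 1 to 4, with Rgs5 the most abundant. Fibroblast markers summed to 419, 721, 410.3 and 878 FPKM in control and 676, 397, 278 and 482 in cKO replicates 1 to 4. Within cKO, both sums were highest in replicate 1 and lowest in replicate 3, as both endothelial sums were. Among the controls, replicate 3 had the lowest mural and fibroblast sums. Of the controls it also had the highest sum of the 30 blood endothelial members, but not of the 5 defining genes. Of the 8 fibroblast markers 1 was lower at an unadjusted p (7.53% of all genes were), Fbln1 (-0.46), and Col3a1 was the most abundant. The 8 macrophage markers summed to 201, 149, 179 and 190.1 FPKM in control and 153, 129.9, 98.8 and 151 in cKO replicates 1 to 4. Of these 4 were lower at an unadjusted p (7.53% of all genes were), namely C1qc (-0.50), C1qa (-0.48), C1qb (-0.46) and Adgre1 (-0.41). C1qa was the most abundant over all libraries, while in cKO alone C1qb had the higher mean (45.4 against 45.2 FPKM). Without cKO replicate 3, C1qb was -0.29. The 7 lymphocyte markers, of which 5 were tested, summed to 13.4, 5.36, 26.8 and 3.85 FPKM in control and 3.72, 3.33, 2.34 and 3.10 in cKO replicates 1 to 4. All cKO libraries were below all controls, control replicate 4 came closest to them, and control replicates 1 and 3 stood far above the rest. At an unadjusted p 3 were lower (7.53% of all genes were), namely Cd79a (-1.38), the most abundant, Cd79b (-0.98) and Cd4 (-0.54), with Cd79a at -0.87 without control replicate 3, and 0 passed after adjustment by limma. None of these 4 lists had a gene at 0 in all libraries.

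Erythroid markers, 5 of 6 tested, summed to 22.5, 23.6, 25.8 and 30.0 FPKM in control and 28.0, 15.2, 15.1 and 14.5 in cKO replicates 1 to 4. Replicate 1 of cKO lay among the controls and the other cKO libraries below them. At an unadjusted p 2 were lower, Hba-a1 (-0.50), the most abundant, and Hba-a2 (-0.38), near-identical copies whose reads may be shared. Of the luminal markers Krt8 was the most abundant and Elf5 (0.82) the only one of 8 with an unadjusted p under 0.05. The 8 myoepithelial markers summed to 2338 ± 377 for control and 2198 ± 323 for cKO (± SD, n = 4 a group), with Acta2 the most abundant, and Oxtr (0.85) was higher and Trp63 (-0.42) and Krt14 (-0.39) lower at an unadjusted p. Of 8 genes that respond to tissue digestion, Hspa1a (1.06, shared in part with its copy Hspa1b) was higher at an unadjusted p, Junb was the most abundant, and the sum was 1133, 921, 1053 and 989 FPKM in control and 1168, 915, 950.4 and 1926 in cKO replicates 1 to 4. The groups overlapped and cKO replicate 4 stood out, without which the log2 fold change of Hspa1a was 0.59. Over all genes tested, 7.53% were lower and 8.85% higher at an unadjusted p under 0.05, against which these marker counts can be read.

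Promoters are shown for Eng, Esm1 and Apln, members whose groups did not overlap. Vwf and Plvap, whose groups did not overlap either, are not shown. ETS factors such as ERG bind a GGAA core, so AGGAA was searched on both strands in 300-base promoters of RefSeq (GRCm38.p6), where it reads AGGAA or TTCCT. It was found in 66.7% of all 32851 promoters, and in 21 of the 25 promoters (84%) of the 19 member genes matched by symbol. A match is a description of letters and not a binding site. The regions are chr2:32646345-32646644 on the plus strand for Eng, chr13:113209409-113209708 on the plus strand for Esm1 and chrX:48034804-48035103 on the minus strand for Apln. Each region runs a short way past the start of its gene. Capitals mark 3, 3 and 1 matches in the regions, and each sequence is written 5′ to 3′ along the gene.
Eng: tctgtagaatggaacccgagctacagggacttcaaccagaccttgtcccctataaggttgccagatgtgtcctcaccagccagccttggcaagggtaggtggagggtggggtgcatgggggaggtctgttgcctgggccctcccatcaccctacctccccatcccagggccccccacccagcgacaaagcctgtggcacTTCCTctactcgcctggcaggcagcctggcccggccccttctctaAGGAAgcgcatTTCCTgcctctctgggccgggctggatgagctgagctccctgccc
Esm1: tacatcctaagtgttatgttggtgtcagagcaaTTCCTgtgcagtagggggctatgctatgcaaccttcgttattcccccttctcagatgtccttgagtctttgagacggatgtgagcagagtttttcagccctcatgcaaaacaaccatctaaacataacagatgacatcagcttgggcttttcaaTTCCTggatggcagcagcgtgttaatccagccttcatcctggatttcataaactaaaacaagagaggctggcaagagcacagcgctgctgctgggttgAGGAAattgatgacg
Apln: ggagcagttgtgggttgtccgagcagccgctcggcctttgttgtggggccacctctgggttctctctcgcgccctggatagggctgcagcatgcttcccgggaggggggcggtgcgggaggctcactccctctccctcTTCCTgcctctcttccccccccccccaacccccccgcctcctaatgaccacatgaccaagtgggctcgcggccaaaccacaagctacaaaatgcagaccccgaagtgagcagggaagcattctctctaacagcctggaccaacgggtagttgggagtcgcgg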

How the data were processed

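RNA-seq of 8 libraries, 4 control and 4 cKO, was used. The authors mapped reads to GRCm38 with Hisat2, and the submitters' processing notes also name mm9, StringTie 1.3.3b and featureCounts 1.5.0-p3. The authors deposited FPKM for 55933 genes. All 36 members had the coordinates of GENCODE vM21, so positions are GRCm38. FPKM times gene length gave whole reads for 100% of values above 0 (tolerance 0.01 of a read), and the steps showed that median-of-ratios size factors were already included. No 2 libraries of a group were duplicates (chi-square per degree of freedom of at least 8.92).

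Differences on log2(FPKM + 1) were tested with limma 3.58.1 in R 4.3.3 (trended empirical Bayes, p adjusted by Benjamini-Hochberg) where the mean FPKM was 0.5 or more, in 15143 genes. The procedure was tested on simulated data. Single values were compared by exact permutation, for which 4 mice against 4 allow no p under 0.0286. Python 3.11.15, pandas 2.3.3, numpy 2.4.6, scipy 1.17.1 and matplotlib 3.10.9 were used elsewhere. Values in every library are given for members with an unadjusted p under 0.05 or groups apart, for Pecam1, Cdh5, Kdr and the lymphatic and ligand genes. Of each other list, genes passing after adjustment, the most abundant gene and the 2 largest changes at an unadjusted p were named. A listed lymphocyte marker is not reported here. Genes behind counts of 5 or fewer were also named, which was chosen after their values were seen. Members and lists were chosen with earlier results of these data known. Alternatives were a pseudocount of 0.1, other filters, scalings and models, blocks, protein-coding genes alone and each library left out in turn.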

Additional observations from a re-analysis of the deposited data

Results flagged for a closer look

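Within groups of 4 libraries, 6 values of 98 groups examined stood far off the other 3. By chance about 1 in 20 do so, or 4.9. Among members, Icam2 was 7.05 FPKM in control replicate 3, and the other controls had 4.52 to 4.70. Tek was 4.03 FPKM in cKO replicate 1, above the 1.95 to 2.11 of the other cKO libraries. Lyve1 was 0.733 FPKM in cKO replicate 3, below the 1.52 to 1.61 of the others. Of summed marker levels, adipocyte markers were 110.3 FPKM in cKO replicate 1 against 145 to 148, and erythroid markers were 28.0 FPKM in the same library against 14.5 to 15.2. Control replicate 4 had 18778823 reads on genes, where the other controls had 16456480 to 16642619.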

How the results depend on the processing

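Of the refits of single members, 583 kept direction and side of the adjusted threshold, 17 reversed, 7 passed it in addition and 19 no longer passed it. The median log2 fold change of members (-0.19) ran from -0.27 to -0.11 with a library left out. The count of members with an adjusted p under 0.05 (2) was 0 with no filter, 0 with the replicate block, 4 among protein-coding genes alone and 0 to 2 with a library left out. Members lower at an unadjusted p (8) numbered 13 under limma-voom plus replicate block, and 4 to 15 with a library left out. All genes lower at an unadjusted p (1140) numbered 1637 under limma-voom plus replicate block, and 916 to 1194 with a library left out. Members apart and lower (4) numbered 4 to 14, and apart and higher (1) 1 to 2, with a library left out. Over all genes tested, those apart and lower (696) then numbered 917 to 1175, and those apart and higher (924) numbered 1146 to 1344. All genes called (135) numbered 10 with no filter, 442 with replicates 1 and 2 against 3 and 4 as a block, 252 with limma-voom, 680 under limma-voom plus replicate block, 266 among protein-coding genes and 0 to 78 with a library left out. Fewer genes enter the adjustment among protein-coding genes and more with no filter. Unadjusted p values moved in these fits too, as for Pecam1 from 0.0354 to 0.0288 and 0.0384 (limma). Causes of the changed counts were not tested.

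The replicate block used numbers from the labels and gave 50 genes called in all, with adjusted p values of 0.0614 for Vwf and 0.0714 for Apln (limma). Flt1, lower in all 4 same-numbered pairs, had an unadjusted p under 0.05 with it and with the other block alike, and did not pass after adjustment. Same-numbered libraries deviated from their group means with correlations of 0.137, 0.11, 0.116 and 0.0797 over genes, and 3 of 8 libraries correlated best with their own number. The mean correlation was 0.111 for the same number, 0.13 for the other number of the same set (replicates 1 and 2, or 3 and 4) and -0.12 between sets. The labels name no litters, so the block is a check alone.

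Reversed signs were found for small changes. Esam was 0.0012 under limma-voom plus replicate block, and Calcrl was -0.0276 in TPM, -0.0017 in TPM without milk genes and -0.0257 with library totals. With a library left out, log2 fold changes ran from -0.0481 to 0.0742 for Esam, -0.171 to 0.078 for Icam2, -0.163 to 0.0217 for Kdr, -0.154 to 0.0148 for Vegfa, -0.143 to 0.0669 for Sox18, -0.112 to 0.13 for Calcrl and -0.181 to 0.0298 for S1pr1. Without a change of sign, values moved by over 1.5 times for members that had not passed, from -0.314 to -0.118 for Cdh5, 0.0487 to 0.236 for Ecscr, -0.148 to -0.0139 for Robo4, -0.321 to -0.128 for Ptprb, -0.309 to -0.115 for Flt1, 0.0208 to 0.108 for Flt4, 0.0744 to 0.194 for Vegfc, -0.333 to -0.0757 for Tek, -0.252 to -0.114 for Sox7, -0.181 to -0.0535 for Sox17, 0.0041 to 0.218 for Aplnr and -0.433 to -0.177 for Lyve1. Depth limits Prox1, Clec14a, Mmrn1, Esm1, Flt4 and Aplnr, which had fewer than 130 reads in every library. It also limits Lyve1, with 34 to 131 reads per library, and Apln, with 36 to 243.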
